A study of Caenorhabditis elegans with 3 samples.

Results

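The clec genes of Caenorhabditis elegans are named for C-type lectins. They were chosen by symbol: 129 of the 15323 genes with a symbol in the deposited per-sample tables have one that starts with clec-. Of the 129, 126 are annotated as protein coding. Another 64 genes of that name in the series table had 0 reads, and 71 more in the RefSeq gene table were not analysed here. Poly-A RNA of strain N2, the laboratory wild type, was read as native strands on a nanopore device, with 1 library from each of 3 stages: mixed-stage embryo, L1 larva (the stage that hatches from the egg) and young adult. Embryos were of mixed age, and larvae and adults were taken as whole worms. The labels give no treatment, and all 3 groups share the strain. With 1 library per stage no difference has a replicate check, so no p-value is given, intervals are 95% intervals for counting error only, and each comparison is between libraries.

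C-type lectin domains are protein folds, many of which bind carbohydrates with the help of calcium. In C. elegans the family is large, many members are predicted to be secreted, and several are expressed in the intestine and respond to bacteria. Other proteins with this fold carry chondroitin, a sugar chain needed for division of the early embryo and for shaping the vulva.

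Values are estimated reads per gene, or RPM, which is a gene's reads per 1000000 reads of its library. One read stands for one RNA strand, so RPM was not divided by length. Library depth was 941707 reads (embryo), 1017061 reads (L1) and 1611049 reads (young adult). A gene with 0 reads may still have had up to 3 reads, or 3.19 RPM in embryo, 2.95 in L1 and 1.86 in young adult. A gene was compared between libraries when the pair held at least 20 reads of it, and was called higher or lower when the interval bound nearest to 1 was at least 2-fold from 1. In whole worms and embryos, fewer cells of a type and less RNA per cell cannot be told apart.

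The family took a similar slice of all 3 libraries, but different genes filled it. Together the 129 members had 4794 reads in embryo, 3668 in L1 and 7056 in young adult. Their joint share was 5091 RPM in embryo (4948 to 5237), 3606 in L1 (3491 to 3725) and 4380 in young adult (4278 to 4483). The direction of the joint difference from embryo depended on scaling: the L1 share was 0.708 times the embryo share by library total and 1.3 times with edgeR's TMM factors, and the young adult share was 0.86 and 1.5 times. Between young adult and L1 the ratio was 1.21 by total and 1.15 with TMM. TMM moved the median log2 ratio of all genes by 0.87 for L1 over embryo, 0.80 for young adult over embryo and -0.08 for young adult over L1.

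**Figure D1:**
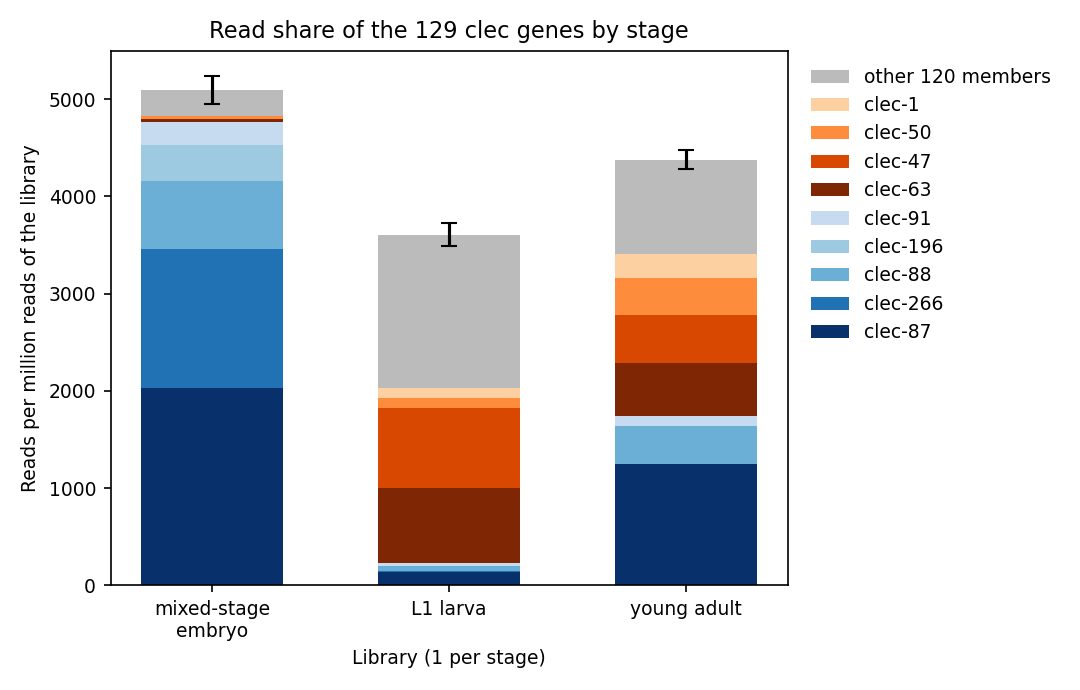
Stacked bars of RPM (linear axis from 0) for the clec genes in each of the 3 libraries. Blues are clec-87 and 4 paralogs, oranges are clec-63, clec-47, clec-50 and clec-1, grey is the other 120 members, and the black bar is the 95% counting interval of the sum. The blue part is 93.6% of clec reads in embryo, 6.41% in L1 and 39.9% in young adult.

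Embryo reads were concentrated in few members and larval reads were spread over many. The leading member held 39.9% of clec reads in embryo, 22.9% in L1 and 28.5% in young adult. The 5 leading members held 93.6%, 56.7% and 69.6% in the same order of stages. A read was seen for 49 members in embryo, 105 in L1 and 99 in young adult, and at least 20 reads for 11, 25 and 33. Thinned to the embryo total, young adult would show 86.5 members. Members seen after hatching alone outnumbered those seen in embryo alone. Of the 129 members, 39 had reads in every library, 41 in L1 and young adult only, 19 in L1 only, 17 in young adult only and 2 in embryo only. The remainder were 6 seen in embryo and L1, 2 in embryo and young adult, and 3 whose estimates rounded to 0. Over all 15323 genes, 12137 had any estimated read in embryo, 13316 in L1 and 12740 in young adult. The patterns over libraries were not counted for all genes, so the part of the library in them was not tested.

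The embryo library was led by clec-87 and its paralogs. The deposited gene description names clec-88, clec-91, clec-196 and clec-266 by their systematic names as paralogs of clec-87, and states that CLEC-87 and CLEC-88 carry a chondroitin attachment site found by mass spectrometry. The 5 genes were grouped after their values were seen, so the group's values are a description. The group had 4486 embryo reads, or 4764 RPM (4626 to 4905), 235 L1 reads, or 231 RPM (202 to 263), and 2814 young adult reads, or 1747 RPM (1683 to 1812). Its young adult reads came from 3 of the 5 genes. The joint share of the group was lowest in the L1 library. It was 20.6-fold lower in L1 than in embryo (18.1 to 23.6), 7.56-fold higher in young adult than in L1 (6.62 to 8.67) and 2.73-fold lower in young adult than in embryo (2.6 to 2.86), which became 1.57-fold with TMM.

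The 5 paralogs followed 2 patterns. The first pattern, of clec-87, clec-88 and clec-91, dipped in L1 and came back in young adult. The gene clec-87 (chromosome I, 10184462 to 10185520, minus strand, WBcel235) had 1912 reads in embryo, 141 in L1 and 2010 in young adult, or 2030, 139 and 1248 RPM, which placed it 47th among all genes of the embryo library. The gene clec-88 (chromosome II, 6365722 to 6367002, plus strand) had 664, 61 and 623 reads, or 705, 60.0 and 387 RPM. The gene clec-91 (chromosome I, 9126140 to 9127101, minus strand) had 221, 28 and 181 reads. All 3 were called lower in L1 than in embryo and higher in young adult than in L1. None was called between young adult and embryo, where the ratios were 0.614 for clec-87 (0.577 to 0.655), 0.548 for clec-88 (0.491 to 0.613) and 0.479 for clec-91 (0.391 to 0.585). These ratios are by library total. With TMM or DESeq2 factors the share of clec-87 was larger in young adult than in embryo.

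The second pattern, of clec-266 and clec-196, was seen almost wholly in embryo. The gene clec-266 (chromosome X, 6617393 to 6622915, minus strand) had 1344 reads in embryo, 4 in L1 and 0 in young adult. The gene clec-196 (chromosome IV, 17276956 to 17277748, plus strand) had 345, 1 and 0 reads. In L1 clec-266 was 363-fold lower than in embryo (141 to 1334), and clec-196 was 373-fold lower (66.4 to 14759). In young adult clec-266 was at least 766-fold lower than in embryo, and clec-196 at least 197-fold lower, against 3 reads in young adult. Where clec-87, clec-88 and clec-91 had adult reads, these paralogs had none.

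**Figure D2:**
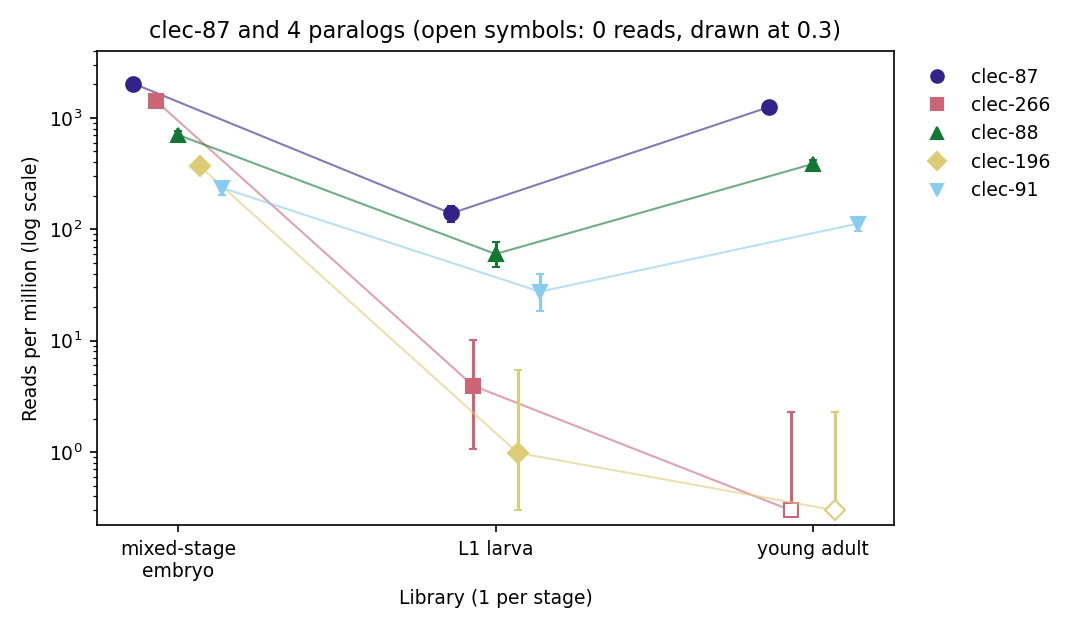
RPM (log axis) of clec-87 and 4 paralogs in each library, with 95% counting intervals; open symbols are 0 reads, drawn at 0.3. Lines for clec-87, clec-88 and clec-91 dip in L1 and climb in young adult, while those for clec-266 and clec-196 drop to 0 reads in young adult.

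Marker lists of cell types also differed between the libraries. No sum of a cell type list both fell at least 2-fold from embryo to L1 and rose again in young adult, but single markers did. By library total the sum of the matrix and chondroitin proteoglycan list, described below, did so too. Summed levels of 13 oocyte and eggshell markers were 1066 RPM in embryo, 933 in L1 and 5755 in young adult, with reads for 12, 13 and 13 of them. Within this list oma-1 (129, 21 and 217 reads), oma-2 (201, 52 and 516) and spn-4 (291, 33 and 300) had the calls of clec-87. They were lower in L1 than in embryo, higher in young adult than in L1, and not called between young adult and embryo. The intestine marker act-5 (94, 27 and 184 reads) had the same calls by library total, and its lower call in L1 was lost with TMM. Of the 13 oocyte and eggshell markers, 3 were lower (2 with TMM) and 3 higher (4 with TMM) in L1 than in embryo, against 33.0% and 13.4% of all genes. Summed levels of 21 sperm markers were 12.7, 179 and 1726, with 2, 15 and 19 detected. Summed levels of 9 epidermis markers were 7075, 354 and 162, and their share was 20-fold lower in L1 than in embryo (18 to 22.3). Oocyte and eggshell markers were 0.875 times in L1 against embryo (1.6 with TMM) and 6.17-fold higher in young adult than in L1, while sperm markers were higher at both steps and epidermis markers lower at both. The L1 library held reads of adult germline and eggshell genes, and their part in the L1 values of clec genes was not tested.

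The other 124 members had 308 embryo reads, or 327 RPM (292 to 366), 3433 in L1, or 3375 RPM (3264 to 3490), and 4242 in young adult, or 2633 RPM (2555 to 2713). The 5 genes set aside are the 5 leading members of the embryo library, so the split itself lowers the embryo share of the remainder, and these values are a description as well. The joint share of the 124 was 10.3-fold higher in L1 than in embryo (9.18 to 11.6) and 8.05-fold higher in young adult than in embryo (7.17 to 9.07). Between young adult and L1 it was 0.78 times (0.746 to 0.816). Summed levels of 14 intestine markers, with reads for 14 of 14 in every library, were 975 RPM in embryo, 3330 in L1 and 4108 in young adult. Much of that sum was asp-1, with 230, 1710 and 4502 reads, and cpr-1, with 5, 811 and 553. In L1 against embryo 6 of the 14 markers were higher and 2 lower (0 with TMM), against 13.4% and 33.0% of all genes. Their median log2 ratio was -0.21 (0.66 with TMM), against -1.14 (-0.27 with TMM) over all genes compared. Summed levels of 9 neuron markers were 675, 3633 and 390 RPM. Of their 3695 L1 reads, egl-3, egl-21 and sbt-1 held 588, 1427 and 1131. In L1 against embryo 3 of 7 compared were higher (4 with TMM) and 0 lower, against 13.4% and 33.0% of all genes. Summed levels of 7 muscle markers were 728, 1288 and 1182, and tnt-2 held 971 of their 1905 young adult reads. In young adult against L1 1 of 7 was higher (0 with TMM) and 4 lower, against 14.5% and 14.2% of all genes. The part of these cell types in the clec values was not tested.

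Outside the clec-87 group the members with most young adult reads were clec-63, clec-47, clec-50 and clec-1. The gene clec-63 (chromosome II, 12895638 to 12897446, plus strand) had 34 reads in embryo, 780 in L1 and 863 in young adult, or 36.1, 767 and 536 RPM. The gene clec-47 (chromosome V, 15175759 to 15176324, plus strand) had 0, 841 and 811 reads, or 0, 827 and 503 RPM. Both were high in L1 and young adult and low or unseen in embryo. The gene clec-50 had 22, 102 and 604 reads, and clec-1 had 2, 109 and 395. Those 2 had their largest share in young adult, where they ranked 5 and 6 in the family. Ranking by reads per kilobase of transcript in place of reads kept the leader in each library, and 7, 7 and 8 of the 8 leading members.

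Of the 50 members with at least 20 reads, 8 had their largest share in embryo, 20 in L1 and 22 in young adult. This split was not counted over all genes. A member could reach the minimum through the library where it was high, and young adult was the deepest library. The split therefore describes these members and was not tested as a trait of the family. With TMM or DESeq2 factors, clec-87 and clec-66 moved from embryo to young adult, which gave 6, 20 and 24. Among the 50, 15 had 0 reads in embryo, 6 in young adult and 0 in L1.

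**Figure D3:**
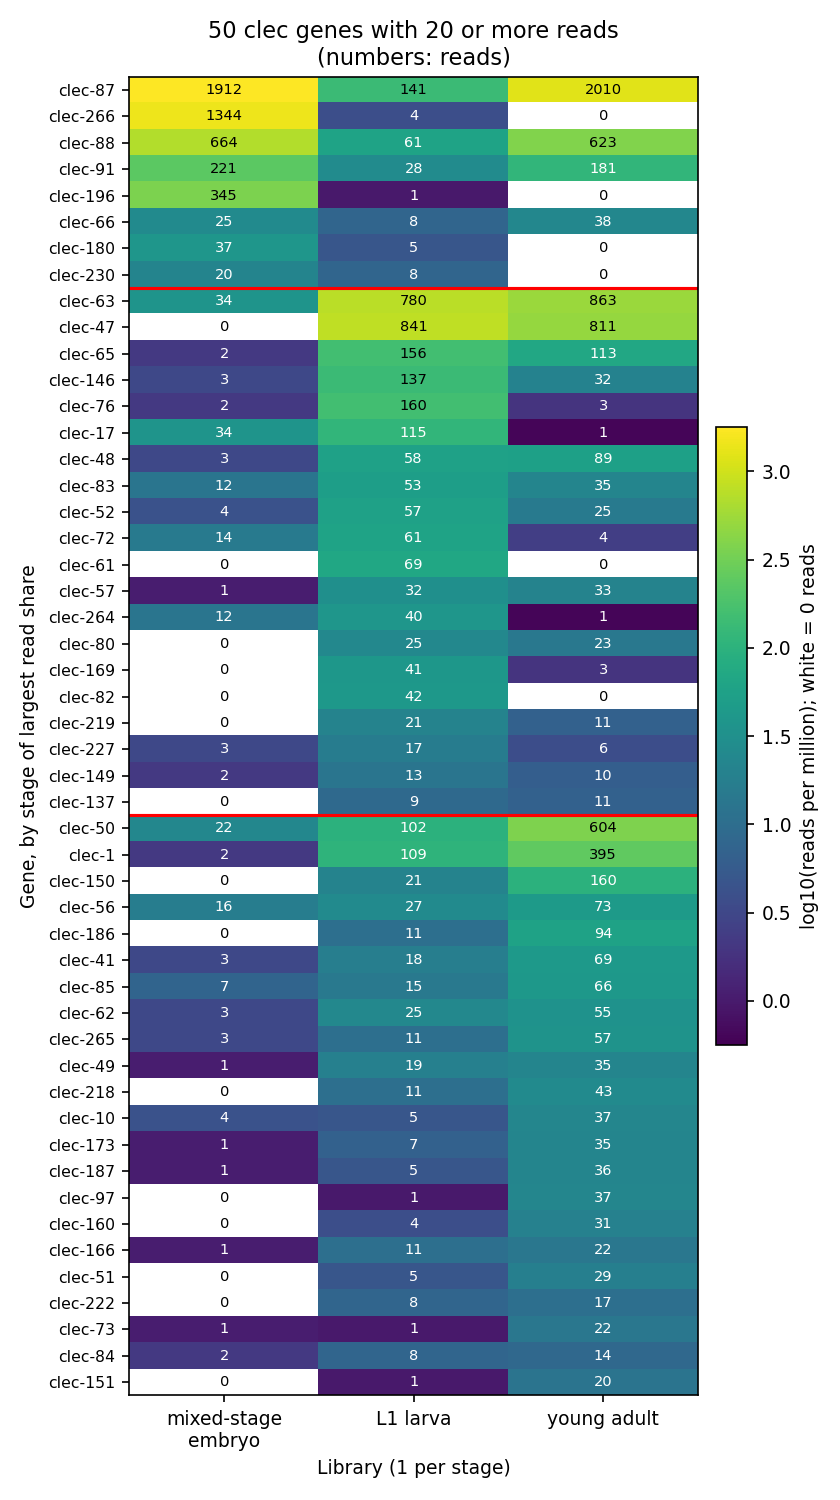
Heat map of log10 RPM for the 50 clec genes with at least 20 reads in all, 1 row per gene and 1 column per library, with the read number printed in each cell and white for 0 reads. Red lines separate the 8 genes with their largest share in embryo, the 20 in L1 and the 22 in young adult.

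Of 34 members compared between L1 and embryo, 21 were higher in L1 and 6 were lower, where 13.4% of 8382 genes were higher and 33.0% were lower. Of the 34, 19 passed the minimum of reads through L1 alone, so the count leans towards that library. With TMM 24 were higher and 5 lower (14.7%), where 18.8% of all genes were higher and 13.5% lower. The median log2 ratio was 2.52 (2.49 with genes at 0 reads set at their bound), against -1.14 over all genes compared. The gene clec-76 had 160 reads in L1 and 2 in embryo, which was 74.1-fold higher (20.2 to 617). The gene clec-65 had 156 and 2 reads in the same libraries and was 72.2-fold higher (19.7 to 602). Of these genes clec-76 was scarce in young adult as well, with 3 reads, while clec-65 had 113. The abundant members were higher too: clec-47, at least 260-fold, and clec-63, 21.2-fold (15.1 to 30.9). The gene clec-146 was 42.3-fold higher with 137 reads in L1 and 3 in embryo (14.2 to 208), and clec-61 was at least 21.3-fold higher with 69 and 0.

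All 5 paralogs of the clec-87 group were among the 6 lower members. There clec-87 was 14.6-fold lower in L1 than in embryo (12.3 to 17.5), clec-88 11.8-fold lower (9.04 to 15.5) and clec-91 8.52-fold lower (5.74 to 13.1). The other, clec-180, had 5 reads in L1 and 37 in embryo and was 7.99-fold lower (3.13 to 26.1), a call lost with TMM and with DESeq2 factors. With either scaling clec-41, clec-264 and clec-227 became higher in L1.

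Between young adult and L1, 9 members were higher and 9 lower of 46 compared, against 14.5% higher and 14.2% lower of 8043 genes. Of the 46, 16 passed the minimum of reads through young adult alone and 8 through L1 alone. Each count therefore leans towards members that passed through the library where they were high. The median log2 ratio was 0.34 for the members and 0.32 for all genes. Besides the paralogs, clec-50 was 3.74-fold higher in young adult (3.03 to 4.66) and clec-150 was 4.81-fold higher (3.04 to 7.98), with 160 reads in young adult and 21 in L1. The gene clec-186 had 94 reads in young adult and 11 in L1, 5.39-fold higher (2.88 to 11.2). The gene clec-97 had 37 and 1, 23.4-fold higher (3.94 to 947). Called higher as well were clec-73, with 22 reads in young adult and 1 in L1, and clec-151, with 20 and 1, whose call was lost with TMM and DESeq2 factors.

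Genes that were strong in L1 and scarce in young adult were clec-17, clec-76, clec-61 and clec-82. The gene clec-17 had 1 read in young adult and 115 in L1, 182-fold lower (32.1 to 7257), and clec-76 had 3 and 160, 84.5-fold lower (28.4 to 414). The gene clec-61 had 0 and 69, at least 36.4-fold lower, and clec-82 had 0 and 42, at least 22.2-fold lower. The gene clec-264 was 63.4-fold lower with 1 and 40 reads (10.7 to 2564), and clec-72 was 24.2-fold lower with 4 and 61 (8.97 to 91.5). Among the abundant members clec-63, clec-47 and clec-1 were not called in this pair: the ratio was 0.698 for clec-63 (0.633 to 0.77), 0.609 for clec-47 (0.552 to 0.671) and 2.29 for clec-1 (1.85 to 2.85).

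Set against embryo, 24 members were higher and 5 lower in young adult of 38 compared, where 13.2% of 8636 genes were higher and 29.3% lower. This comparison shares its libraries with the other pairs, and 27 of the 38 passed the minimum through young adult alone. With TMM 28 were higher and 5 lower, where 19.6% of all genes were higher and 17.3% lower. The median log2 ratio was 3.40 (2.72 at the bound), against -0.71 for all genes. The gene clec-47 was at least 158-fold higher, clec-1 115-fold higher (31.7 to 957), clec-50 16-fold higher (10.5 to 25.8) and clec-63 14.8-fold higher (10.5 to 21.6). With 0 embryo reads, clec-150 was at least 31.2-fold higher and clec-186 at least 18.3-fold higher. Besides clec-266 and clec-196, the lower members were clec-180, at least 21.1-fold lower with 0 reads in young adult and 37 in embryo, clec-17, 58.2-fold lower with 1 and 34 (9.76 to 2364), and clec-230, at least 11.4-fold lower with 0 and 20. With TMM or DESeq2 factors clec-146, clec-56, clec-52 and clec-10 became higher.

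**Figure D4:**
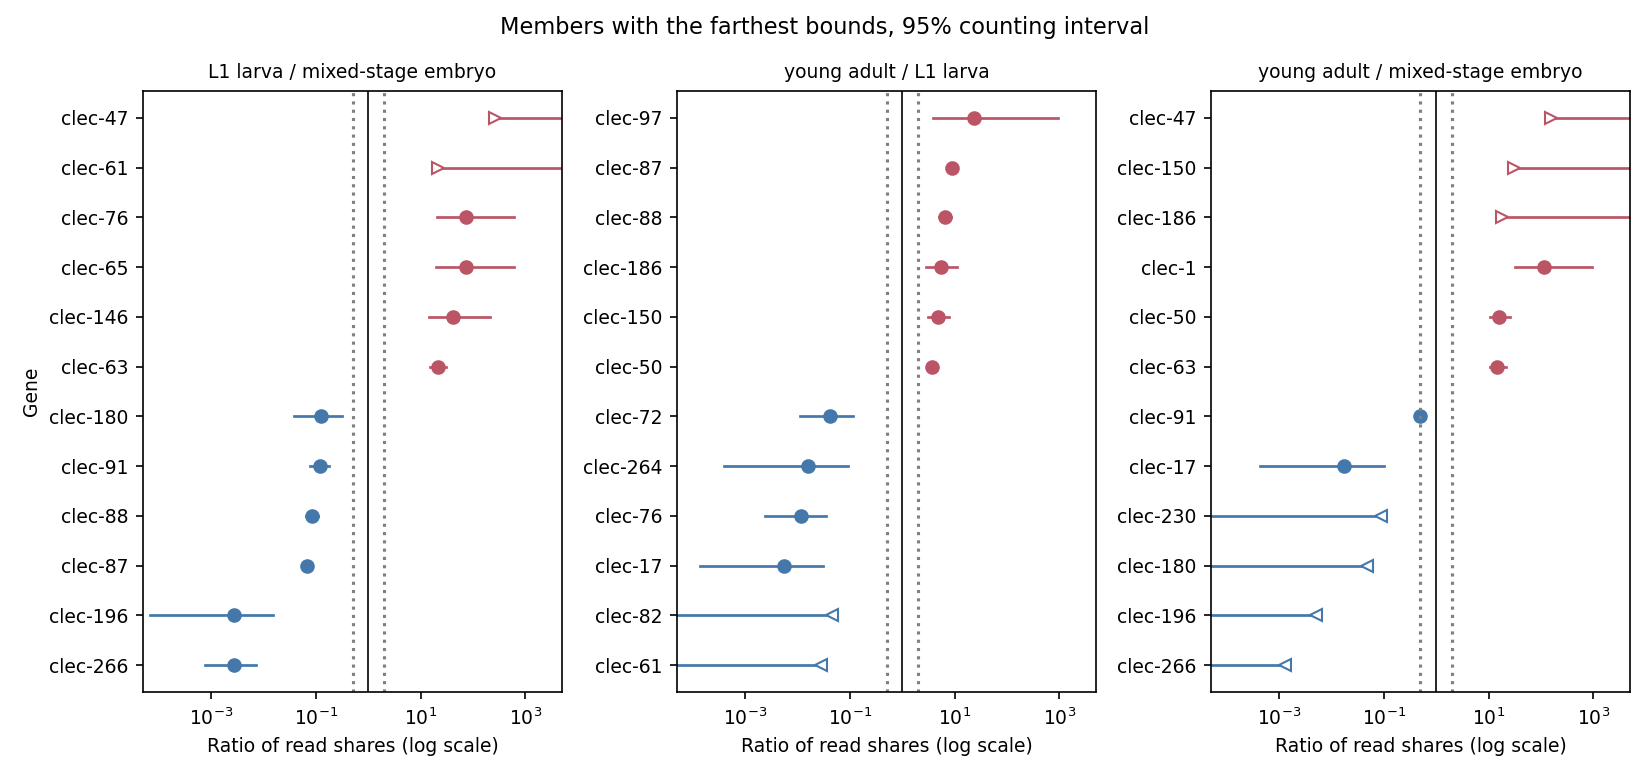
Ratio of read shares (log axis) with its 95% counting interval for the 6 members per direction whose bound lies farthest from 1, in 3 panels: L1 over embryo, young adult over L1 and young adult over embryo. Open triangles mark the lower bound of the fold against 3 reads where one library had 0, with a line away from 1, dotted lines are 2-fold, and clec-91 in the last panel, at 0.479, was not called.

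The members named here for a known or described role had few or moderate reads, and other members may have such roles. The gene clec-60, described as part of the response to bacterial infection, had 0 reads in embryo, 17 in L1 and 0 in young adult, like its neighbour clec-61. The gene clec-85, a target of the p38 MAPK immune pathway, had 7, 15 and 66 reads and was 5.51-fold higher in young adult than in embryo (2.53 to 14.2). The gene clec-67, described as induced by infection in the intestine, had 5, 2 and 11 reads. The gene clec-149, described as an inhibitor of germline cell death, had 2, 13 and 10.

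Members lying side by side were also compared. On the gene models of Ensembl release 115 (WBcel235), 72 members lay within 10 kb of another, in 22 groups, and 0 of the 5 clec-87 paralogs did. Chromosomes IV and V each held 27.9% of members, against 16.7% and 20.4% of all genes, and X held 2.33%, against 13.8%. The chromosome II group of clec-62 to clec-66 had 64 reads in embryo, 972 in L1 and 1069 in young adult. Within it clec-62, clec-63, clec-65 and clec-66 were not called between young adult and L1. In the chromosome IV group of clec-67 to clec-79, with 10 members, clec-76 and clec-72 were lower in young adult than in L1, while clec-73 between them was higher, with 1 read in embryo, 1 in L1 and 22 in young adult. In the chromosome IV group of clec-80 to clec-85, clec-82 was seen in L1 alone, and clec-85 was not called between young adult and L1, at 2.78 times (1.57 to 5.24). Models of clec-82 and clec-85 overlap a gene of low reads on the same strand by 116 and 397 bases.

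**Figure D5:**
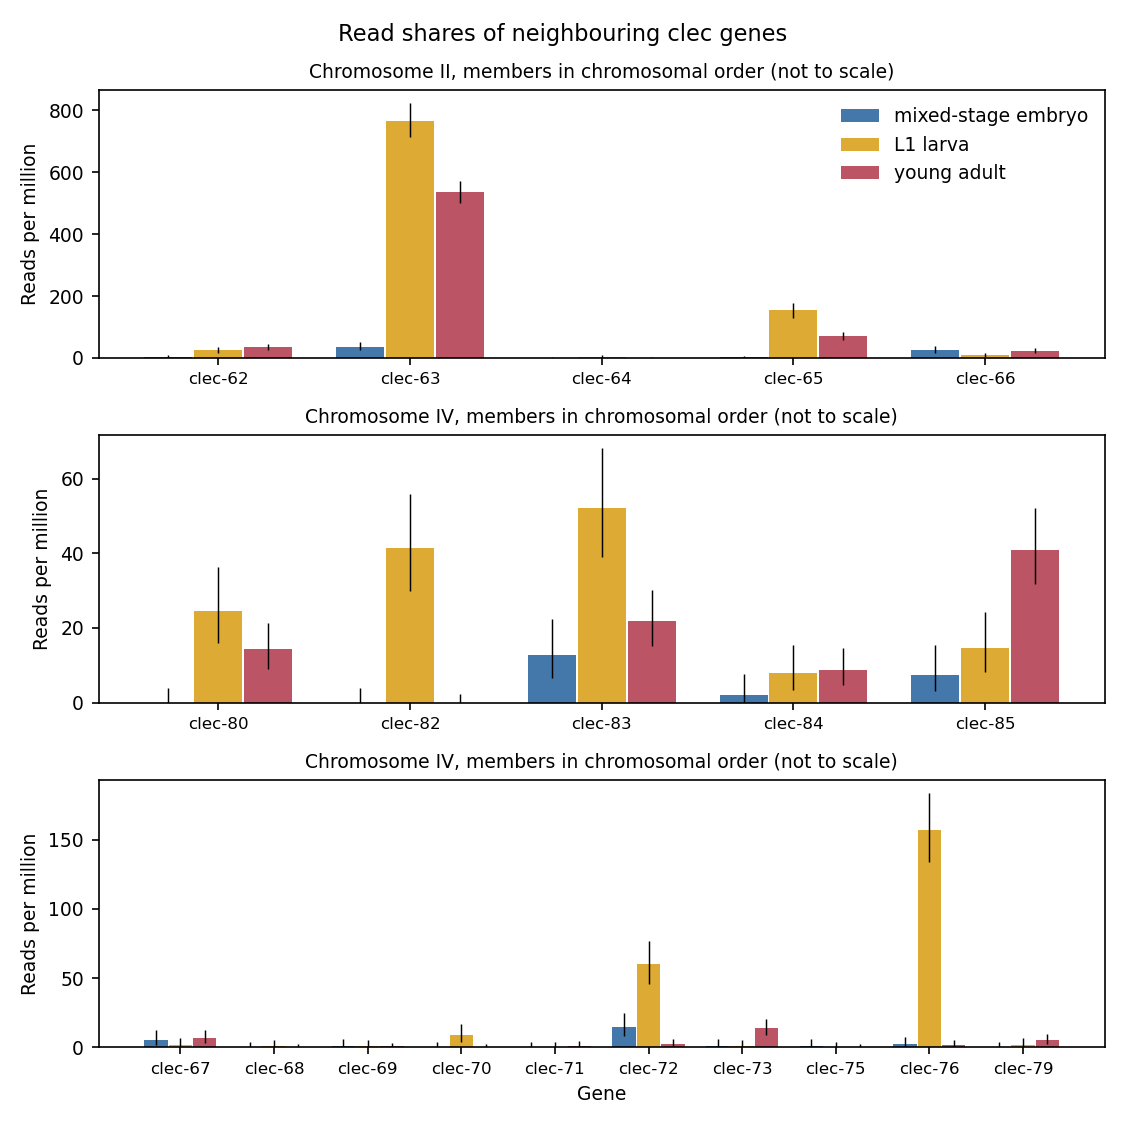
Bars of RPM (linear axes from 0) with 95% counting intervals for neighbouring clec genes in chromosomal order, 1 panel per group: clec-62 to clec-66, clec-80 to clec-85 and clec-67 to clec-79. In the clec-67 to clec-79 panel the bar of clec-76 is tallest in L1, with 160 reads, and that of clec-73 in young adult, with 22.

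Reads of a member were divided by the authors over isoform rows, most of which carry a read identifier in place of a transcript name. The members had 1126 rows, 105 of them with a transcript name, and 82 members had all their reads on identifier rows. Rows with a transcript name held 22.1% of clec reads in embryo, 16.3% in L1 and 32.6% in young adult, against 17%, 15.4% and 17.9% of all reads. For clec-87 the named transcript C25A1.8.1 held 47% of embryo reads (44.7 to 49.2), 34.8% of those in L1 (26.9 to 43.2) and 77.2% of those in young adult (75.3 to 79). For clec-63 the named transcript F35C5.6.2 held 26.5%, 30.6% and 35.7% in the same stages, with overlapping intervals between neighbouring stages. The gene clec-47 had 0 named rows, and its leading identifier row held 49.8% of its reads in L1 and 57.2% in young adult. Library values of a row may derive from pooled proportions, so differences between rows could be altered by that step.

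Other immune and sugar-binding genes were set beside the shares of all genes compared: 13.4% higher and 33.0% lower for L1 over embryo, 14.5% and 14.2% for young adult over L1, and 13.2% and 29.3% for young adult over embryo. Of 17 compared genes for secreted defence effectors such as lysozymes and saposin-like proteins, 15 were higher in L1 than in embryo and 1 was lower, and in young adult against embryo 17 of 20 were higher and 2 lower. Most of these genes passed the minimum of reads through L1 alone or young adult alone, so both counts lean towards those libraries. Against L1, 4 of 21 were higher in young adult and 7 lower. The invertebrate lysozyme gene ilys-5 had 0 reads in embryo, 67 in L1 and 3075 in young adult, the saposin-like gene spp-5 had 143, 1548 and 1066, and spp-3 had 21, 412 and 556. Galectins, lectins of another fold, were higher in L1 than in embryo for 3 of 11 (5 with TMM, 6 with DESeq2) and lower for 0, and in young adult against L1 2 were higher and 1 lower. In young adult against embryo 4 of 11 were higher (6 with TMM or DESeq2) and 0 lower. The galectin gene lec-6 had 44, 139 and 832 reads, lec-2 had 434, 564 and 1158, and lec-5 had 396, 775 and 389.

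Signalling genes of the p38 MAPK immune pathway were near the background in L1 against embryo: 0 of 8 were higher and 2 lower (25%; 0 with TMM), against 33.0% lower of all genes, and the median log2 ratio was -1.03, against -1.14. In young adult against L1 0 of 5 were higher and 1 lower, and in young adult against embryo 0 of 7 were higher and 6 lower (4 with TMM). The adaptor gene tir-1 had 152 reads in embryo, 50 in L1 and 10 in young adult, and the transcription factor gene skn-1 had 188, 106 and 87. The transcription factor gene atf-7 was 3.29-fold lower in young adult than in embryo (2.68 to 4.06). Of the intestinal GATA factors, elt-2 had 45, 24 and 18 reads, elt-7 had 52, 15 and 12, and elt-4 had 2, 3 and 2. Of 2 compared, 1 was lower in L1 than in embryo (0 with TMM), 0 changed between young adult and L1, and 2 were lower in young adult than in embryo (1 with TMM).

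Genes of the matrix and chondroitin proteoglycan list were also compared, 10 at most in a pair. Their summed levels were 1671 RPM in embryo, 560 in L1 and 2596 in young adult. The sum was 2.98-fold lower in L1 than in embryo (1.63-fold with TMM) and 4.63-fold higher in young adult than in L1. In young adult against L1 5 of 10 were higher (4 with TMM) and 0 lower, against 14.5% and 14.2% of all genes. In L1 against embryo 0 of 9 were higher and 4 lower (44.4%, against 33.0% of all genes). In young adult against embryo 4 of 10 were higher and 5 lower (2 with TMM), against 13.2% and 29.3% of all genes. The eggshell chondroitin proteoglycan genes cpg-1 and cpg-2 had 101, 105 and 748 reads and 99, 123 and 1753 reads in embryo, L1 and young adult, and cpg-3 had 22, 64 and 883. Unlike clec-87, with 1912 reads in embryo, all 3 were low in embryo as well as in L1. The 4 genes lower in L1 than in embryo, as clec-87 was, were cpg-8 (483, 96 and 208 reads), mig-6 (408, 64 and 133), unc-52 (163, 54 and 71) and sdn-1 (240, 34 and 18). None of these was called between young adult and L1, where clec-87 was higher.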

How the data were processed

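The deposited series table holds estimated counts per isoform row and library, which the authors did not scale for depth. The column headed Cpm in the deposited per-sample tables is a signal equal to the estimated reads times 1.326721, and was used only for symbols and this check. Per the labels' protocols, TRIzol-extracted RNA was read on R9.4.1 flow cells under MinKNOW 2.1 with Albacore 2.0.1, and per the submitters' processing notes minimap2 2.14 was used. The sources used here give no build, annotation or isoform tool.

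Estimated counts were summed per gene, a placeholder of 1e-08 was taken as 0, and sums were rounded. Ratios of read shares carry exact conditional binomial (Clopper-Pearson) 95% intervals, fitted for all genes. Log2 ratios have 0.5 read added, and a 0 was set to 3 reads for lower bounds. With 1 library per stage there was no test. Named genes were the 8 members with the largest share per library, the 6 per pair and direction with the farthest bounds, the 5 with most reads for isoforms, the 3 with most reads per list, and members of known role. Other genes named were chosen after their values were seen. Members and lists were chosen with earlier results of these data known. The comparison was tested on simulated reads. Near-identical members could share reads, which was not tested. Alternatives were edgeR 4.0.16 TMM and DESeq2 1.42.0 size factors, other minimums and folds, and named rows only. Python 3.11.15, numpy 2.4.6, pandas 2.3.3, scipy 1.17.1 and R 4.3.3 were used.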

Additional observations from a re-analysis of the deposited data

How the results depend on the processing

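No paired analysis was possible because each stage has 1 library, and no library could be left out. Counts and shares were recomputed under the alternative settings. The value moved by no more than 1.5 times or its interval in 49 of these recomputations and further in 29. No direction of a called member was reversed under the settings run. Members called higher in L1 than in embryo, 21 as reported, numbered 32 with a minimum of 10 reads or with none, 13 with 50, and 2 on rows with a transcript name alone, where the 6 lower became 3. The 9 higher in young adult than in L1 became 15 at 1.5-fold, 2 at 4-fold and 2 on named rows. The 9 lower became 14 with a minimum of 10 reads, 16 with none and 1 on named rows. The 24 higher in young adult than in embryo became 12 with a minimum of 50 reads, 13 at 4-fold and 5 on named rows, and the 5 lower became 2 with 50 reads, 8 at 1.5-fold and 2 on named rows. Fewer members have enough reads under the stricter minimums and on named rows. The cause of other shifts was not tested. Joint shares on named rows were scaled like RPM, but to the reads on named rows in place of the library total. So scaled, they were 6600 in embryo, 3798 in L1 and 7980 in young adult. Over all rows and by library total, joint shares without the leading member of each library were 3060, 2780 and 3132 RPM. With at least 5 reads, 18 members were seen in embryo, 61 in L1 and 53 in young adult. Members with their largest share in L1 numbered 33 from 10 reads and 13 from 50, and in young adult 11 from 50. The 79 members under 20 reads were left out of the comparisons by that minimum, and some of them pass the 2-fold bound without it.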

Other observations

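The 79 members with fewer than 20 reads held 472 reads together, 33 in embryo, 260 in L1 and 179 in young adult. Among them clec-7 had 0 reads in embryo, 16 in L1 and 1 in young adult, clec-9 had 1, 16 and 0, and clec-207 had 0, 3 and 14. The gene clec-78 had 9 reads in embryo and 0 in both other libraries. These genes were chosen after their values were seen.

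Coding length differed between the clec-87 group and the other members with a coding model. The 5 paralogs had coding lengths of 459 to 744 bases with a median of 699, and 121 others had 480 to 10542 with a median of 1065.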
